A study of Mus musculus with 2 samples.

Results

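Mir126a and Mir126b are a pair of mouse microRNA genes that overlap on opposite strands within Egfl7, and they were chosen by gene name in the GENCODE M21 annotation. They are 2 of the 2202 microRNA genes in the count tables. The RNA came from the gastrocnemius, a calf muscle, of adult male B6CASTF1/J mice aged 18 to 20 months, which are first-generation offspring of C57BL/6J and CAST/EiJ parents. The labels form a single group of 2 microRNA-seq libraries, replicate 2 and replicate 1, with inserts under 30 nt and no treatment. Each library has its own biosample but both carry the same donor identifier, and nothing states that the animals were separate or whether animals were pooled, so differences between the libraries may be technical. The counts assigned to microRNA genes on their own strand were 2156222 in replicate 2 and 4442692 in replicate 1, and levels are given as CPM, counts scaled to a common total from these sums. Mir126a and Mir126b are compared below by strand, by level, between the libraries and with other microRNA genes.

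MicroRNAs are cut from hairpin precursors as short mature strands, named 5p and 3p after the arm they come from. A mature strand guides Argonaute proteins to messenger RNAs, mainly by pairing of its seed, bases 2 to 8. Mir126a is known for its strong expression in endothelial cells, which line blood vessels and the capillaries between muscle fibres. Its host gene Egfl7 encodes a secreted protein of the vessel wall that takes part in the formation of vascular tubes. In mouse and zebrafish, loss of miR-126 impairs the integrity of vessels, and its known targets include Spred1 and Pik3r2, which dampen signalling by vascular growth factors.

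The hairpins are shown because both genes read the same stretch of DNA from opposite strands. The sequences are those of RefSeq on GRCm38.p6, 5′ to 3′, with the mature strands that the RefSeq table lists in capitals.
Mir126a hairpin: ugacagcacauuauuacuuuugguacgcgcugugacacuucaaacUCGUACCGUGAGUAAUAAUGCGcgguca
Mir126b hairpin: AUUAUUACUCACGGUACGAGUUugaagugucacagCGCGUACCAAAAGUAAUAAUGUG
The Mir126b hairpin is the exact reverse complement of bases 7 to 64 of the Mir126a hairpin. It therefore leaves 6 bases at the start and 9 at the end of Mir126a that belong to Mir126a alone. Both were predicted to fold back on themselves with RNAfold, Mir126a with 27 base pairs and −31.2 kcal/mol and the shorter Mir126b with 21 base pairs and −19.3 kcal/mol.

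The mature strands that the RefSeq table lists are shown with the seed in capitals. For Mir126a it lists the 3p strand only, so the comparisons below do not cover a 5p strand of Mir126a.
miR-126a-3p: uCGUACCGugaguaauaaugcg
miR-126b-3p: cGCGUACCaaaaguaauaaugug
miR-126b-5p: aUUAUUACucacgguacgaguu
No other of the 1679 mature names in the RefSeq table has any of these 3 seeds. A seed held by a single name was common in that table, at 72.1% of names. The strand miR-126b-5p lies opposite miR-126a-3p over 19 bases of DNA. The strand miR-126b-3p resembles miR-126a-3p in its own direction. Placed without gaps on the Mir126b hairpin, miR-126a-3p matched best at base 37, within miR-126b-3p, with 17 of 22 bases equal and 5 mismatches. The longest run that these strands share is AGUAAUAAUG, of 10 bases.

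Both genes lie on chromosome 2 of the mm10 assembly. Mir126a (ENSMUSG00000065540.1) lies at chr2:26591357-26591429 on the plus strand, the strand of Egfl7. Mir126b (ENSMUSG00000105799.1) lies at chr2:26591363-26591420 on the minus strand. Egfl7 (ENSMUSG00000026921.18) runs from 26580014 to 26593120 and has 19 transcripts in GENCODE M21. Mir126a lies in an intron of 8 of them, 7 of which are protein-coding, and 10 do not reach it. The single transcript with Mir126a in an exon is a retained intron transcript. In all 8 spliced transcripts the exon before Mir126a ends 293 bases upstream, while the next exon begins 234 bases downstream in 6 of them and 688 bases downstream in the other 2. Neither flank holds another abundant microRNA gene. The nearest gene in the table, Mir6996 at 0.121 Mb, had 0 counts in replicate 2 and 1 count in replicate 1. The nearest microRNA genes with 100 or more counts over both libraries were Mir199b at 5.73 Mb on one side and Mir669o at 16.1 Mb on the other, all picked by position.

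**Figure D1:**
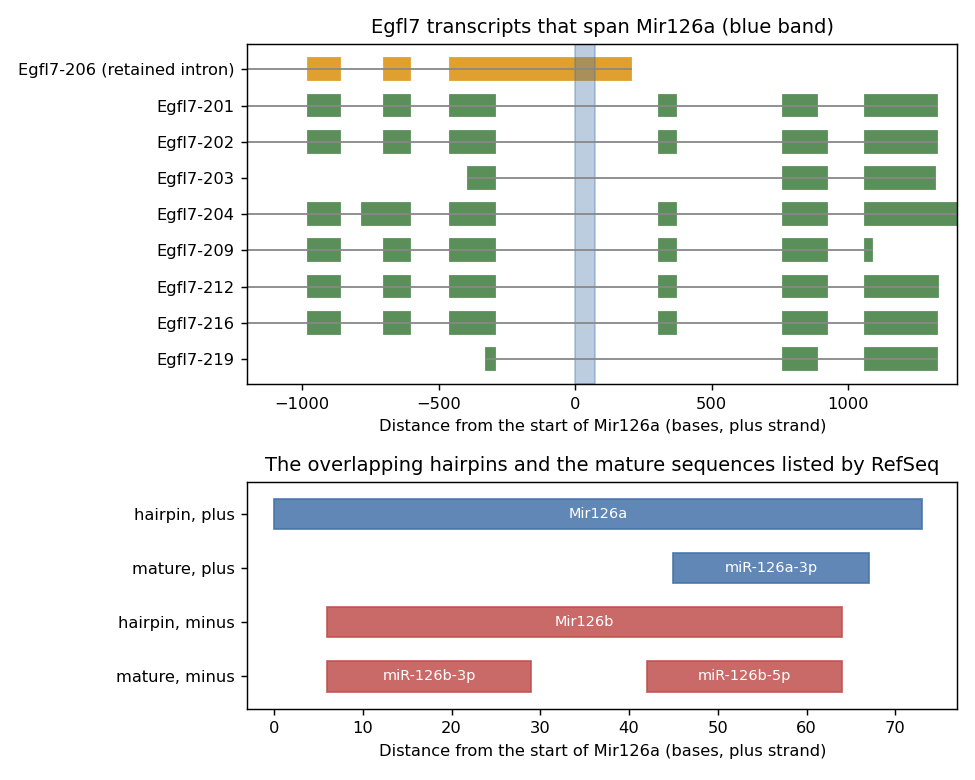
The upper panel draws the exons (boxes) and introns (lines) of the Egfl7 transcripts that span Mir126a, with distance in bases from the start of Mir126a on the x axis and the retained intron transcript in orange. The lower panel draws the hairpins and mature strands on the same scale, with the 58 bases of Mir126b inside the 73 bases of Mir126a.

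All reads of the locus that were assigned to a microRNA gene on its own strand fell on the Mir126a strand. Mir126a had 119425 gene-strand counts in replicate 2 and 463895 in replicate 1. Mir126b had 0 gene-strand counts in both. The opposite-strand column gave the mirror image, with 0 for Mir126a in both libraries and with 119424 in replicate 2 and 463884 in replicate 1 for Mir126b. A count of 0 allows up to 1.39 CPM of Mir126b in replicate 2 and 0.675 CPM in replicate 1, taking 3 counts as the limit. As a share of the pair, it allows up to 0.00251% in replicate 2 and 0.000647% in replicate 1. Such limits cover counting error only, since reads amplified by PCR are not independent molecules.

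Counting without strand removed the locus from the profile. Mir378a, Mir191 and Mir30e, which also overlap opposite-strand partners, had 0 counts without strand in both libraries. Reads that overlap both genes of a pair are then ambiguous, and Mir126a was left with 1 count in replicate 2 and 11 counts in replicate 1. These equal the differences between its gene-strand count and the opposite-strand count of Mir126b, so each of the other reads overlapped the shared bases. Mir126a then stood at rank 421 in replicate 2 and rank 317 in replicate 1 of the 2202 genes, against ranks 5 and 3 with strand. Its reads were 20.7% of the 576791 reads that were ambiguous without strand in replicate 2 and 35.9% of the 1292884 in replicate 1. Mir126b had 0 counts without strand in both libraries, which was fixed in advance because it lies wholly inside Mir126a.

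**Figure D2:**
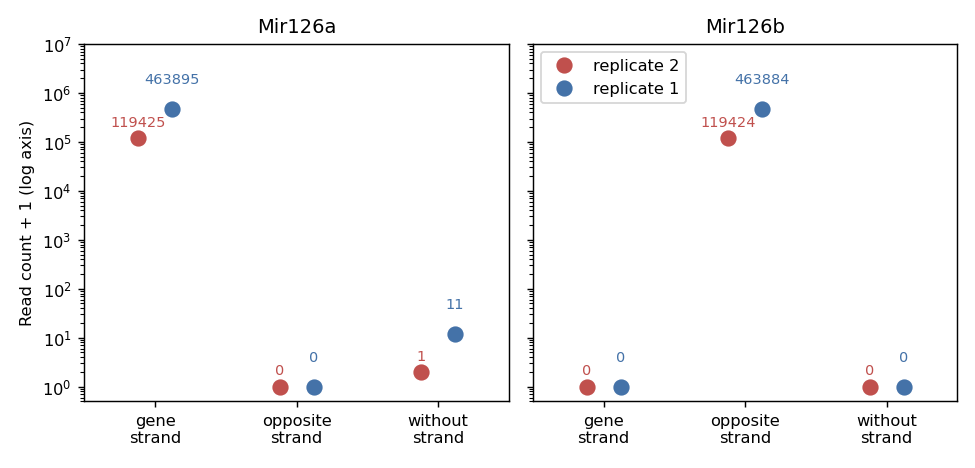
Read count plus 1 (log axis) of Mir126a and Mir126b in each of the 3 columns of counts, with replicate 2 in red and replicate 1 in blue and the count printed above each point. Mir126a holds 119425 and 463895 reads on its own strand, and the same reads, less 1 and 11, stand in the opposite-strand column of Mir126b.

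Opposite-strand reads were rare in both libraries. Over the 2135 genes that overlap no other microRNA gene, 44 reads were on the opposite strand in replicate 2, beside 1579430 on the gene strand, or 0.00279%. In replicate 1 there were 113, or 0.00359%. Of such genes with 10000 or more gene-strand counts, 1 of 25 had any opposite-strand read in replicate 2 and 3 of 38 did in replicate 1. The absence of reads opposite Mir126a was thus shared by most abundant genes.

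The tables hold 32 pairs of microRNA genes that overlap on opposite strands, and in 16 of them the member with more counts had 100 or more in each library. In 11 of the 16, Mir126a and Mir126b among them, the other member had 0 counts in both libraries. Mir126b was therefore one of many opposite-strand partners with no read. Having no read was common over all genes as well. Ranked by mean CPM, the genes with 0 counts in both libraries began at rank 644 of 2202. The 11 of 16 pairs thus do not set opposite-strand partners apart from other genes. Of the 6 pairs highest in mean CPM, Mir191, Mir30e and Mirlet7e also stood against partners at 0, namely Gm24083, Mir30f and Gm25927. Mir378a, in an intron of Ppargc1b, had 400484 and 710764 counts in replicates 2 and 1, and its partner Gm25301 had 0 and 2. The remaining pair had reads on both strands. Mir486, a muscle and erythroid microRNA gene in Ank1, had 7367 and 18843 counts in replicates 2 and 1, and its partner Mir3107 had 417 and 262. The share of Mir3107 in its pair was 5.36% in replicate 2 and 1.37% in replicate 1, above the limits given for Mir126b. Multimapping reads are in no gene count, so these shares cover assigned reads only and may not reflect the use of each strand.

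**Figure D3:**
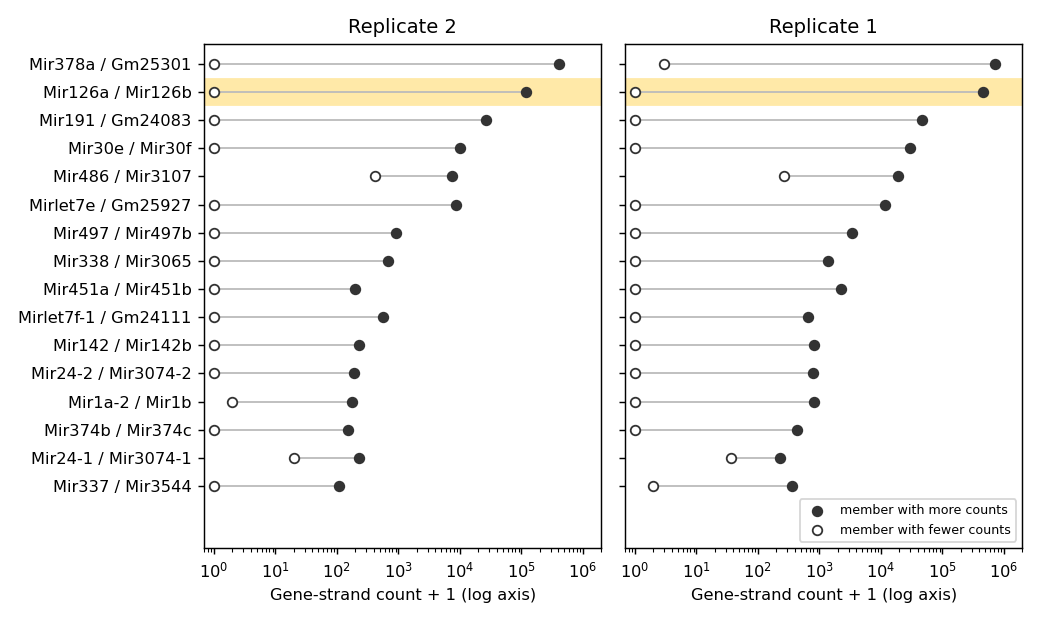
Gene-strand count plus 1 (log axis) of both members of the 16 opposite-strand pairs, replicate 2 on the left and replicate 1 on the right, with filled points for the member with more counts and open points for the other. The Mir126a row is shaded, and its open point lies at 0 counts in both panels.

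Among reads assigned to a single microRNA gene, Mir126a was one of the most abundant in this muscle. Multimapping reads, 70.2% of all reads in replicate 2 and 73.8% in replicate 1, are in no gene count, so genes with near-identical copies, such as Mir1a-1, Mir1a-2, Mir133a-1 and Mir133a-2, may rank too low beside it. Its level was 55386 CPM in replicate 2, against 104418 CPM in replicate 1, a mean of 79902 ± 34670 CPM (SD, n = 2). These levels are 5.54% and 10.4% of the assigned counts, with Wilson 95% intervals of 0.0305 and 0.0284 percentage points to either side. Of all reads in the tables, unassigned ones included, Mir126a took 1.10% in replicate 2 and 1.63% in replicate 1. A mature microRNA is short enough to be read whole, so CPM are set side by side between genes without scaling to length. Counts are given per gene, so the 3p and 5p strands cannot be told apart. In bulk muscle, fewer endothelial cells and less RNA per cell cannot be told apart either.

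Ranked by mean CPM of assigned reads, Mir126a had rank 3, below Mir378a and Mir22 and above the let-7 genes Mirlet7g and Mirlet7i. Mir378a was above Mir126a in both libraries. The ratio of Mir126a to Mir378a counts was 0.298 in replicate 2 (exact 95% counting limits 0.296 and 0.300) and 0.653 in replicate 1 (0.650 and 0.655). Mir22, a muscle-abundant microRNA gene, lay on different sides of Mir126a, which had 1.61 times its counts in replicate 2 and 0.698 times its counts in replicate 1. Mirlet7g and Mirlet7i, members of the let-7 family known for its role in developmental timing, did so too. Mir126a had 0.907 and 2.37 times the counts of Mirlet7g in replicates 2 and 1, and 0.941 and 2.63 times those of Mirlet7i. Only the place below Mir378a therefore held in both libraries among these 4 neighbours.

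Sequence copies of Mir126a were sought because its own multimapping reads would be missing from its counts. Among 141767 GENCODE M21 transcripts, any run of 20 bases of the Mir126a hairpin occurred on the same strand in Mir126a itself and the retained intron transcript of Egfl7. On the reverse strand it occurred in Mir126b. The longest run shared with any of 1003 other hairpins of the RefSeq table was 11 bases, with Mir7039. The rest of the genome was not searched.

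Between the libraries, Mir126a was lower in replicate 2. Its log2 ratio of replicate 2 over replicate 1 was −0.82 (exact 95% counting interval −0.83 to −0.81), computed on CPM plus 1 with TMM scaling, and its plain CPM was 1.89-fold higher in replicate 1. The two-sided exact test on the binomial counts, adjusted by Benjamini-Hochberg, gave a p too small for the software to represent. That test compares these libraries only and takes in counting error alone, and 235 of 380 tested genes, 61.8%, passed its threshold of 0.05. Lower in replicate 2 were 120 of 380, 31.6%, and higher were 115, 30.3%. The difference of Mir126a was smaller than the SD of 1.13 of the log2 ratios over the 228 genes with 100 or more counts. Of these 228 genes, 87, or 38.2%, lay further from 0 than Mir126a, and 50 had a lower ratio. Mir126b had no count and could not be tested.

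Among the 20 most abundant genes, 14 had a log2 ratio above 0 and 6 below it, and 2 of the 6, Mir22 and Mir21a, had a lower ratio than Mir126a. The 5 genes of 1000 CPM or more with a log2 ratio nearest to that of Mir126a, out of 52 at that level with Mir126a included, were Mir21a at −0.92, Mir92-1 at −0.69, Mir423 at −0.51, Mir30a at −0.48 and Mir30d at −0.45. Likeness here is the distance between single log2 ratios over 2 libraries, so it ranks genes and no more. Mir21a, known from inflammation and fibrosis, was nearest, at 7683 CPM in replicate 2, against 15456 CPM in replicate 1. With all reads of the tables as the total, the ratio of Mir126a was −0.57 and 62.1% of calls were higher in replicate 2, against 48.9% with TMM. That scaling put the median of the tested genes at 0.17, against 0.02 with TMM, and Mir126a differed from those medians by −0.75 and −0.84.

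**Figure D4:**
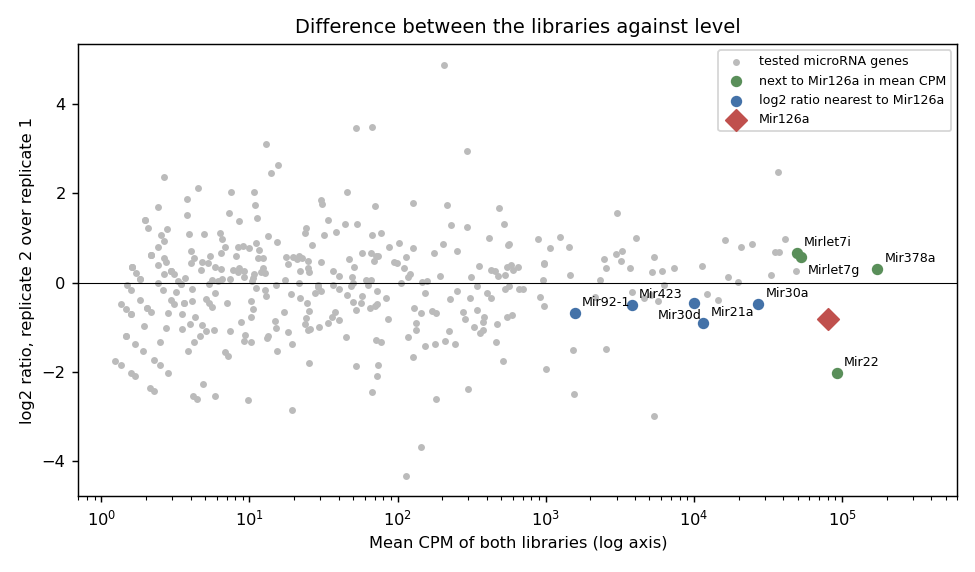
Log2 ratio of replicate 2 over replicate 1 against mean CPM (log axis) for the 380 tested microRNA genes in grey. Mir126a (red diamond) lies at −0.82, between Mir22 below it and the let-7 genes above 0 at a like level, and the blue points are the 5 genes nearest to it in ratio.

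Marker microRNA genes of other cell types moved between the libraries as well, and their part in the difference of Mir126a was not tested. All 9 skeletal muscle markers had counts in both libraries and summed to 65700 CPM in replicate 2, against 16413 CPM in replicate 1. Mir206 alone made up 61540 and 11810 CPM of these sums, and the other 8 summed to 4160 CPM in replicate 2, against 4603 CPM in replicate 1. By the same exact test, Mir206, Mir499 and Mir208b were higher in replicate 2 and Mir133a-1 and Mir133a-2 did not pass. Mir1a-1, Mir1a-2, Mir133b and Mir486 were lower, Mir486 turning above 0 with all reads as the total, so the list did not move as a class. Mir126a was 0.843 times the whole sum in replicate 2 and 6.36 times it in replicate 1, and without Mir206 these ratios were 13.3 and 22.7. Multimapping reads are in no gene count, so the Mir1a and Mir133a genes may be counted too low and these ratios may be too high. Mir143 and Mir145a, markers of the smooth muscle and mural cells around vessels, summed to 56840 CPM in replicate 2, against 48845 CPM in replicate 1. The ratio of Mir126a to this mural sum was 0.974 in replicate 2 and 2.14 in replicate 1. The erythroid pair Mir451a and Mir144 summed to 109 CPM in replicate 2, against 777 CPM in replicate 1. The 4 leukocyte markers all had counts and summed to 3632 and 2285 CPM in replicates 2 and 1, with Mir150 and Mir155 higher in replicate 2 and Mir142 and Mir223 lower, Mir223 turning above 0 with all reads as the total. Of the 3 fibroblast markers Mir199a-1 was at 0, and the sums were 403 and 1632 CPM. The 7 epithelial markers summed to 225 and 205 CPM, of which Mir203, higher in replicate 2, made up 210 and 141 CPM, while Mir205, Mir200b and Mir429 were lower in replicate 2. The liver marker Mir122 held 396 and 13.3 CPM. Of 6 neural markers, all 3 Mir124a genes, Mir9-1 and Mir9-2 were at 0, and the sums were 2.78 and 0 CPM. The Mir124a, Mir9 and Mir199a genes have near-identical copies, so their reads may be multimapping and a 0 here does not show absence. The endothelial list held only Mir126a and Mir126b, so the endothelial label could not be checked against other genes.

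Mir126a was set beside 30 microRNA genes known from studies of blood vessel growth. Among assigned reads it was above each of them in both libraries. It had 1.03 times the CPM of the highest, Mir23a, in replicate 2 and 3.49 times that of the highest, Mir23b, in replicate 1. The list was chosen with earlier results known, so this place depends on which genes it holds, and Mir378a, not listed, was above Mir126a. Multimapping reads are in no gene count and Mir23a and Mir23b are paralogs, so the margin of 1.03 may not hold with such reads counted. The 30 genes together held 154113 CPM in replicate 2, against 115394 CPM in replicate 1, and Mir126a alone equalled 0.359 and 0.905 times these sums. Mir23a and Mir23b, of paralogous clusters with Mir27 and Mir24 genes, held 53565 and 44840 CPM in replicate 2, against 28833 and 29905 CPM in replicate 1. Mir10b, in a Hox cluster, held 19392 and 20484 CPM in replicates 2 and 1, and Mir100, which targets Mtor, held 17056 and 16763 CPM. Mir27b, Mir10a, Mir322 and Mir328 followed with means of 5093, 3203, 2993 and 2150 CPM. Only the first 4 of these had a mean of 10000 CPM or more. Mir19a, Mir19b-1 and Mir216a had no count in either library.

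Of the 30 genes, 24 had enough counts to be tested between the libraries. In the exact binomial test 12 were higher in replicate 2, 9 were lower and 3 did not pass, beside the shares of 30.3% and 31.6% over all tested genes. Calls in this test depend on depth, and shares among genes of like depth were not computed. Their median log2 ratio was 0.23, beside 0.02 over all tested genes. The hypoxia-induced Mir210 (−1.07) and Mir24-2 (−0.90), named after their values were seen, were the 2 members with a lower ratio than Mir126a. The 2 most abundant went the other way, with log2 ratios of 0.99 for Mir23a and 0.68 for Mir23b. Mir92-1, of the Mir17 cluster, was lower in replicate 2 at −0.69, and Mir10b at 0.01 did not pass (adjusted p = 0.140, exact binomial test). Mir10b was below 0 with plain totals, DESeq2 size factors, counts without strand, no count filter and totals without Mir22, Mir378a or Mir126a. With all reads as the total 15 members were higher in replicate 2 and 4 lower, and Mir17, Mir27a, Mir20a and Mir503 turned above 0. With no count filter 10 members were higher and 11 lower, and Mir100 turned below 0. Genes with near-identical copies, among them Mir24-1, Mir24-2, Mir92-1, the Mir218 genes and the Mir19b genes, have uncertain counts.

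**Figure D5:**
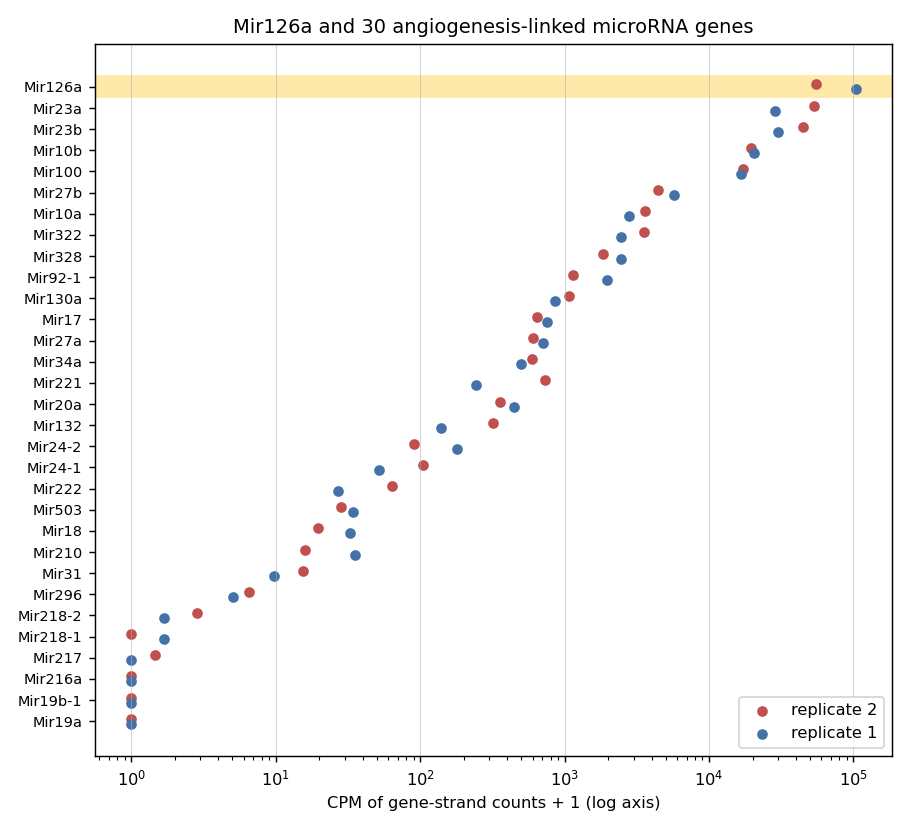
CPM of gene-strand counts plus 1 (log axis) for Mir126a (shaded) and the 30 angiogenesis-linked microRNA genes ordered by mean CPM, with replicate 2 in red and replicate 1 in blue. By assigned reads Mir126a lies above all 30 in each library, with Mir23a next to it in replicate 2 at 53565 against 55386 CPM.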

How the data were processed

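MicroRNA-seq was done on 2 gastrocnemius libraries. The authors deposited a table of raw read counts for each library, with a row per microRNA gene, on mm10 with GENCODE M21 per the file headers of the accompanying readmes. Aligner, trimming and counting tool: not given in the sources used here. The 3 count columns carry no names. From their values they were taken as unstranded, gene-strand and opposite-strand counts. Unassigned reads (80.2% in replicate 2 and 84.3% in replicate 1) stayed out of totals and tests.

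CPM used gene-strand totals. Log2 ratios used CPM + 1 and edgeR's TMM scaling. An exact binomial test was run on genes with 10 or more counts over both libraries, with library sizes scaled by TMM. The p-values were adjusted over all such genes (Benjamini-Hochberg). A check of the test on simulated data held counting error only, so it does not cover further spread between the libraries. Named genes were the members, the 2 genes on either side of Mir126a in mean CPM, the 5 nearest in ratio at 1000 CPM or more, up to 8 list members and up to 6 opposite-strand pairs. The members and lists were chosen with earlier results of these data known. Alternatives were other strands, scalings (DESeq2), pseudocounts, filters and totals. Tools were edgeR 4.0.16, DESeq2 1.42.0, R 4.3.3, RNAfold 2.7.2, matplotlib 3.10.9, scipy 1.17.1, pandas 2.3.3, numpy 2.4.6 and Python 3.11.15.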

Additional observations from a re-analysis of the deposited data

How the results depend on the processing

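Mir126b had 0 counts under all alternatives run, each library alone included. Other totals or single libraries cannot change a count that is 0 in both libraries. Without strand, any read on Mir126b also overlaps Mir126a and is ambiguous, so that 0 was fixed in advance. These alternatives therefore add no support for the absence of Mir126b. With counts without strand the mean level of Mir126a was 2.06 CPM and its log2 ratio −1.39, with an adjusted p of 0.176 in the exact binomial test, since only 12 counts then remained. With all reads of the tables as the total its mean level was 13663 CPM. Left alone, the libraries gave 55386 and 104418 CPM for Mir126a and 0 CPM and 0% of the pair for Mir126b. Under the 10 alternatives that kept the gene strand, the log2 ratio of Mir126a stayed below 0 and past the threshold, from −0.97 with no count filter to −0.57 with all reads as the total. These 2 alternatives moved the median of the tested genes to −0.11 and 0.17. The number of genes that differed between the libraries ranged from 209 to 237, beside 235. TMM-scaled totals, chosen after seeing the data, gave Mir126a 79152 CPM. No paired analysis was possible because the labels form 1 group. Depth limits the ratios of genes with few counts, and each library stands for its replicate alone.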

Other observations

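Besides Mir486 and Mir3107, 1 more of the 16 opposite-strand pairs had reads on both strands in both libraries, named here after its values were seen. Mir24-1 had 225 counts in replicate 2 and 226 in replicate 1, and its partner Mir3074-1 had 19 and 35. Among assigned reads, the share of Mir3074-1 in its pair was 7.79% in replicate 2 and 13.4% in replicate 1. The paralogous pair of Mir24-2 and Mir3074-2, with 192 and 790 counts for Mir24-2 in replicates 2 and 1, had 0 counts for Mir3074-2 in both. Mir24-1 and Mir24-2 are near-identical copies, and multimapping reads are in no gene count. The shares and the contrast between these pairs are therefore uncertain.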
